A study of Bos taurus with 6 samples.

Results

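CpG island shores are the flanks of CpG-dense, unmethylated sequence, and here they were followed in whole-genome bisulfite sequencing (WGBS) of cattle rumen epithelial primary cells (REPC). The 29 autosomes were divided into 500-bp windows, and a window with more than 30 distinct CpGs, at least 20 reads pooled over the 6 libraries and a pooled methylation level under 15% was taken as an island. A shore window lay within 4 windows (2 kb) of an island, held 30 or fewer CpGs and had a pooled level of 15% or more. The rule gave 81820 shore windows around 26599 island windows, which is 1.89% of the 4318570 autosomal windows with a CpG that was read. A read is here a count at a CpG cytosine, so that a sequenced fragment spanning several CpGs counted several times. The pooled levels of the same 6 libraries chose both the islands and the shores, and levels by distance are therefore given as a description and without a test. The difference between treated and control cells was not used by the rule.

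In mammalian genomes most CpGs carry 5-methylcytosine, whereas CpG islands, many of which overlie promoters, usually stay free of it. The flanks of islands are where one state passes into the other, and variation in methylation between tissues is often located there. Butyrate is a short-chain fatty acid produced by microbial fermentation in the rumen, an energy source for the rumen epithelium and an inhibitor of histone deacetylases.

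The cells came from the rumen epithelium of a single Holstein bull calf, 2 weeks of age and fed milk replacer. The control group was 3 libraries from untreated cells and the butyrate group was 3 libraries from cells exposed to 5 mM butyrate for 24 h. All libraries derive from 1 animal, so that the spread between them does not include variation between animals. The methods call the replicates biological, but the labels do not state that they were separate cultures, and p-values then measure only the spread between these libraries, which may be technical. The sequencing lane differed: lane 6 carried all 3 controls together with butyrate replicate 2, whereas the other butyrate libraries were on lane 5. Treatment and lane can thus be told apart only through butyrate replicate 2. The libraries held between 17923575 and 22751720 autosomal CpG reads. Expression was not part of these data and the identity of the cells was not checked against marker genes.

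The shores held 642558 CpGs, or 2.71% of those read on the autosomes, and 2.66% of the autosomal reads. A shore window had a median of 24 reads pooled over the libraries, with a range of 1 to 8967. Of the 81820 windows, 46371 (56.7%) had 20 or more pooled reads, 38078 had a read in every library, and 3347 had 10 or more in every library. Thus 19231 windows (23.5%) were placed among the shores with fewer than 10 pooled reads, and single windows were described only where coverage allowed. Pooled over all shores, a library had between 476517 and 613352 reads, and the 95% Wilson interval of its level reached no more than 0.136 points to either side. These intervals cover counting error only.

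The share of flanking windows that qualified as shore was larger at each of the first 4 steps from an island. Directly beside an island (distance 1), 12039 of 31243 windows (38.5%) were shores. At this distance 17516 windows (56.1%) had a level under 15% with 30 or fewer CpGs, so that the unmethylated state more often extended past the CpG-dense window than ended at it. At distances 2, 3 and 4 the shores were 22307, 23802 and 23672 windows, and they made up 75.6%, 83.0% and 84.6% of the windows present. Windows under 15% were 18.6%, 9.41% and 6.77% at these distances. Windows with no CpG read were 2.04% at distance 1 and 7.71% at distance 4, and windows with more than 30 CpGs were between 0.929% and 3.37%. In all, 27587 of the 117425 windows within 2 kb were left out for their low level. At the threshold itself, the 488 windows between 15% and 16% held a median of 14 CpGs and 61.5 pooled reads, and the 530 windows between 14% and 15% held a median of 15 CpGs and 63 pooled reads.

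**Figure D1:**
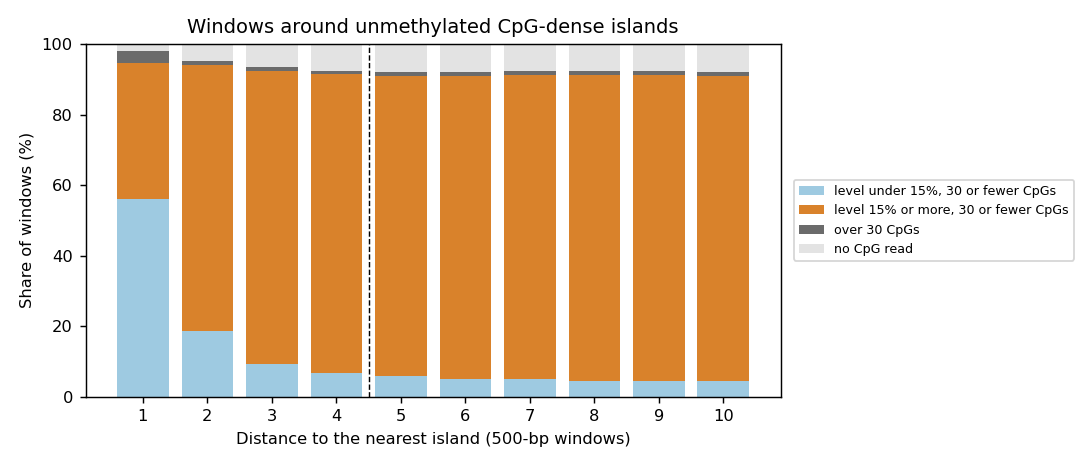
Share of windows (y axis, percent) at each distance from the nearest island (x axis, in 500-bp windows), divided into windows under 15%, windows of 15% or more with 30 or fewer CpGs, windows with more than 30 CpGs and windows without a read CpG; the dashed line marks the limit of the shores. The share of methylated windows rises from 38.5% at distance 1 to 84.6% at distance 4 and then changes little.

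Methylation was higher at each step away from the islands and close to its plateau at 2 kb. Directly beside an island the shores had levels of 42.5%, 42.1% and 41.6% in control replicates 1 to 3 and of 42.4%, 42.4% and 42.1% in butyrate replicates 1 to 3. The libraries of both groups overlapped at this distance. At distance 2 the control levels were 65.3%, 65.5% and 65.1%, and the butyrate levels 65.4%, 65.2% and 65.5%. At distance 3 they were 73.1%, 73.1% and 73.3% in control, and 74.0%, 73.3% and 73.4% in butyrate. The step was therefore 23.2 points from distance 1 to 2, 8.02 points from 2 to 3 and 2.12 points from 3 to 4, as means over the 6 libraries. At distance 4 the control levels were 75.1%, 75.2% and 75.2% and the butyrate levels 76.2%, 75.6% and 75.6%.

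Windows at distance 5 had a mean level of 76.9%, and those up to distance 10 stayed between 76.9% and 77.3%. The 3511769 remote windows, which lay 20 or more windows (10 kb) from any island and met the same limits on level and CpG number, had a mean level of 73.6%. Remote minus distance 4 was -1.84 points in the mean of the 6 libraries, with a range of -2.13 to -1.66 points. The islands had a mean level of 3.33%. CpG density fell with distance as well, from a mean of 46.3 CpGs in an island window to 12.7, 7.77, 6.69 and 6.62 in shores at distances 1 to 4, against 5.05 in remote windows. Depth per CpG was similar along the shore, with 5.27, 4.86, 4.93 and 4.98 pooled reads per CpG at distances 1 to 4.

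**Figure D2:**
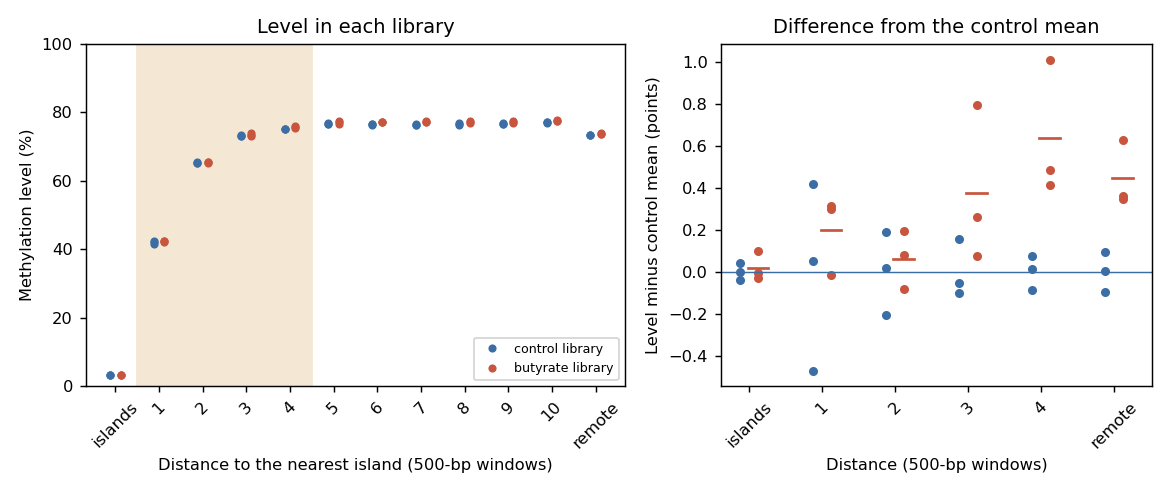
Left, methylation level (y axis, percent) of each control and butyrate library in islands, in windows at distances 1 to 10 and in remote windows (x axis), with the shores shaded. Right, the level of each library minus the mean of the 3 controls (y axis, points), with a bar at the butyrate mean; the groups are apart at distance 4 and in remote windows and overlap at distances 1 to 3 and in islands.

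Because shore windows under 15% were removed by the rule, the size of the rise depends on it. With all windows of 30 or fewer CpGs included whatever their level, the levels at distances 1 to 4 were 17.4%, 51.0%, 65.5% and 69.2%. The rise from distance 1 to 4 was then 51.8 points in place of 33.3 points. Where the level was measured in libraries that had not been used to choose the windows, distance 1 had 40.9% and the rise was 34.4 points.

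In steps of 100 bp from the edge of the island window the mean transition was similar on both sides. The sides are those of lower and higher coordinate, not of gene orientation. The mean curves therefore do not measure how alike the sides of a single island are. With windows of any level included, the first 100 bp had a mean level of 7.91% on the side of lower coordinate and 7.84% on the side of higher coordinate. Between 400 and 500 bp the levels were 36.4% and 35.5%, and between 900 and 1000 bp they were 57.8% and 59.1%. The last 100 bp within 2 kb had 68.8% and 71.2%. Among the shore windows alone, the first 100 bp had 20.3% on both sides, and the level reached 66.4% and 65.2% between 400 and 500 bp. It then stepped down to 56.7% and 57.0% between 500 and 600 bp. This step lies at the border between the windows of distance 1 and distance 2, which are different sets chosen separately by level, and it is absent when windows of any level are used. The sides differed by at most 2.54 points in any 100-bp step within 2 kb.

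**Figure D3:**
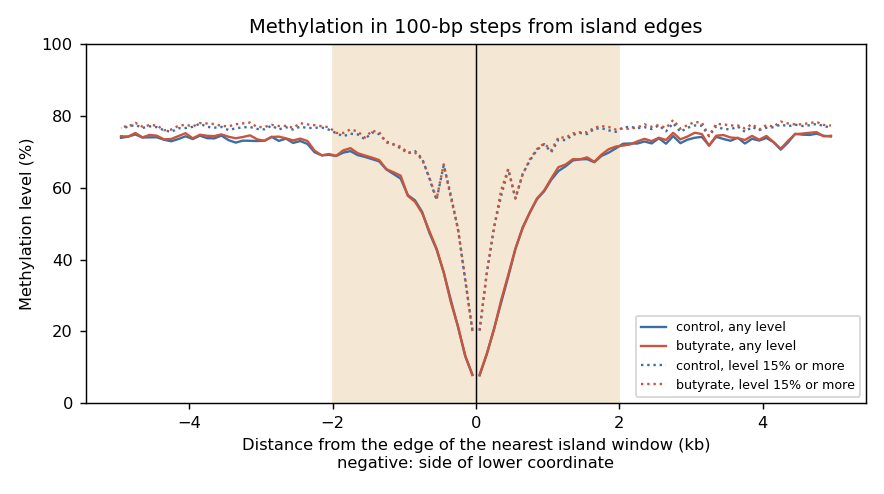
Methylation level (y axis, percent) in 100-bp steps from the edge of the nearest island window (x axis, kb, negative on the side of lower coordinate), as the mean of 3 control and of 3 butyrate libraries, for windows of any level (solid) and of 15% or more (dotted). Both groups follow the same curve, and the dotted line breaks at 500 bp, where the set of windows changes.

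Within a shore window the side away from the island was the more methylated. The islands and windows were chosen on the same reads, so that this is also a description without a test. Each window was divided into the 250 bp toward its island and the 250 bp away from it. At distance 1 the inner part had a mean level of 29.7% and the outer part 59.7%, and the outer part was higher by 29.5 to 30.3 points in the 6 libraries. At distance 2 the outer part was higher by 8.50 to 9.32 points, and at distance 3 by 1.91 to 3.12 points. At distance 4 the difference ranged from -0.195 to 0.982 points and was positive in 5 of 6 libraries. In remote windows, which have no island to face within 10 kb, the same division gave a mean of 0.00560 points. Of 7255 windows at distance 1 with 10 or more pooled reads in each part, 6436 (88.7%) were higher in the outer part and 807 were lower, with a median difference of 32.5 points. Butyrate did not separate from control in this quantity at any distance. At distance 1 the outer part was higher by 29.8 ± 0.286 points in control and 30.1 ± 0.265 in butyrate (SD, n = 3 each, exact permutation p = 0.3).

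The means combine windows of very different levels. Among shores with 20 or more pooled reads, the median level was 39.1% at distance 1, 72.9% at distance 2, 81.6% at distance 3 and 82.9% at distance 4. At distance 1, 63.5% of such windows lay between 15% and 50% and 7.92% reached 80%, whereas at distance 4 the shares were 11.4% and 57.3%. A tail of weakly methylated windows remained at every distance, the 10th percentile being 18.2% at distance 1 and 45.9% at distance 4. Remote windows, with a median of 78.8%, had fewer windows of 80% or more (48.2%) than distance 4.

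**Figure D4:**
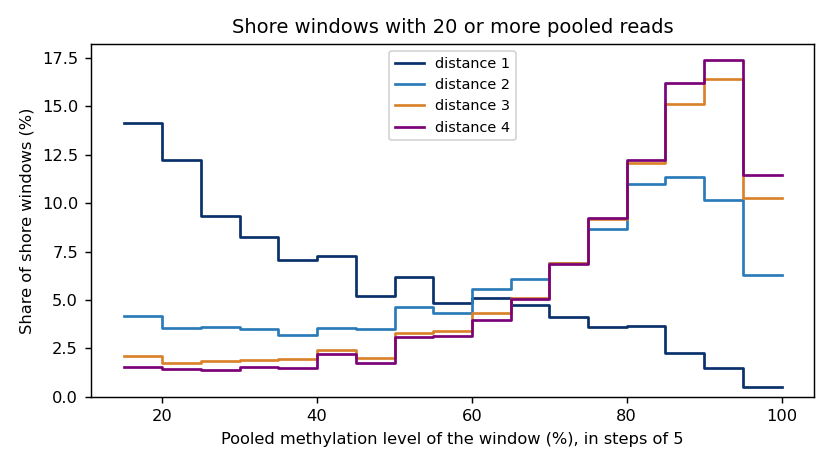
Share of shore windows (y axis, percent) by pooled methylation level (x axis, percent, in steps of 5) at distances 1 to 4, for windows with 20 or more pooled reads. Distance 1 has its highest share just above the 15% limit, and distances 3 and 4 have theirs between 90% and 95%.

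Single CpGs showed the same mixture. Of 12226 CpGs with 10 or more pooled reads in shores at distance 1, 33.0% had a level under 20%, 43.9% were between 20% and 80%, and 23.1% had 80% or more. At distance 4 the shares were 5.89%, 28.9% and 65.2% of 11437 CpGs. A larger part of the CpGs beside islands was therefore intermediate than at the outer limit of the shore, where the share of intermediate CpGs was also below that of remote windows (36.3%).

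CpG density and methylation went in opposite directions along the shores. At distance 1, windows with 1 to 5 CpGs had a mean level of 53.8%, those with 6 to 15 had 45.8% and those with 16 to 30 had 39.0%. The same order was seen at distance 4, where the levels were 77.6%, 76.4% and 73.0%. Among the windows kept by the rule, the difference between the sparsest and the densest was therefore larger beside the island. The rule left out 56.1% of windows at distance 1 for a level under 15%. The classes were not recomputed with windows of any level or with held-out levels, so that the part of this limit was not tested. In remote windows the order was not kept, since windows with 1 to 5 CpGs had 71.1%, below 74.9% and 73.8% in the denser classes.

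Shore levels also varied with the length of the island and with the presence of a second island. Neighbouring islands with no more than 1 window between them were joined, which gave 15235 runs, of which 7822 were a single window and 147 had 6 or more, up to 13. A shore window was present at 15017 runs. At runs of 1 window the levels at distances 1 and 4 were 41.8% and 74.6%, and at runs of 2 to 3 windows they were 43.0% and 77.0%. At runs of 6 or more windows they were 37.7% and 68.9%, with 138 and 178 shore windows and a range over libraries of 36.5% to 39.4% and 66.6% to 71.6%. The 1500 shore windows that had an island within 2 kb on both sides were lower at every distance than those with an island on one side. At distance 2 these levels were 53.1% and 65.9%, and the 6 libraries of the first kind (51.8% to 54.3%) lay below all 6 of the second (65.7% to 66.1%).

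The level of a shore was loosely related to that of the sequence around it, and the sides of an island were loosely related to each other. Surroundings were the windows between 5 and 50 kb from a run and at least 5 kb from any island. Where these had a level under 60% (937 runs), the shores had mean levels of 33.0%, 51.1%, 57.7% and 57.2% at distances 1 to 4. Where they had 75% or more (8577 runs), the shores had 43.5%, 67.1%, 76.4% and 78.4%. The rise beside the island was thus present in both, and the plateau differed by more than 20 points. Across 10502 runs with 100 or more shore reads, Pearson's r between the level of the shore and that of its surroundings was 0.250 (Spearman's rho 0.200). These points come from the same 6 libraries and are a description. Across 6616 runs with 50 or more reads on either side, r between the levels of the sides was 0.136 (rho 0.121), and the median absolute difference between the sides was 15.6 points. The correlations with the surroundings and between the sides used different runs and read minima, so that their sizes cannot be compared directly.

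Individual shores departed from the mean curve. Among 1438 runs whose 8 flanking windows were all shores, those with the most pooled reads were described. Runs with a flanking window among the most covered 0.1% of autosomal windows by reads per CpG were left out. The run of 3 islands at chr25:41982501-41984000 (UMD3.1.1) had pooled levels of 1.20% to 2.16%. On the side of lower coordinate its shores had 21.9%, 62.9%, 96.8% and 88.8% at distances 1 to 4, and on the side of higher coordinate 57.4%, 90.3%, 79.7% and 93.9%. The sides thus differed most directly beside the island. The run of 2 islands at chr25:42128501-42129500 had 7.98% and 8.24%, and its shores already had 52.6% and 78.6% at distance 1. The single island at chr17:71005001-71005500 had 2.20%, and its shores at distance 1 had 66.7% and 45.6%. Between 0 and 13 reads per library supported the first of these values and between 8 and 28 the second. Most shore reads of this run lay in chr17:71003501-71004000 at distance 3, with 1163 pooled reads. Its other shore windows held between 35 and 250 pooled reads each. Neighbouring genes are not named, because no annotation of this assembly was used here.

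Shores were found on every autosome at unequal density. They were 4.49% of the windows with a CpG on chromosome 25 and 4.12% on chromosome 18, and 1.07% on chromosome 9. Shore levels lay between 59.96% and 67.25% on 27 autosomes, with chromosome 27 at 50.7% and chromosome 4 at 55.7%. On these chromosomes the 10 shore windows with most reads held 26.2% and 18.2% of the chromosome's shore reads. On chromosome 8, with a level of 59.96%, they held 24.7%, and on chromosome 20, with a level of 66.1%, they held 13.7%. Without the most covered 0.1% of CpGs, an alternative added after the values were seen, the levels were 55.0% on chromosome 27, 59.9% on chromosome 4, 61.9% on chromosome 8 and 65.8% on chromosome 20.

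The comparison of butyrate with control asked whether the treatment moved methylation in the shores. The level over all shores was 63.9%, 63.8% and 63.7% in control replicates 1 to 3 and 64.3%, 64.0% and 64.0% in butyrate replicates 1 to 3. Each butyrate library was above each control library, by a mean of 0.328 points (63.8% ± 0.110 against 64.1% ± 0.198, SD, n = 3 each). The exact two-sided permutation test gave p = 0.1, which is the smallest value that 3 against 3 libraries can reach, so that no comparison of this kind can pass 0.05. Without butyrate replicate 1 the difference was 0.214 points, and the groups were still apart. Within lane 6, butyrate replicate 2 was 0.220 points above the control mean and 0.124 above the highest control. The groups overlapped when each window was given equal weight (0.293 points), in windows with 10 or more reads in every library (0.379 points), and over CpGs read in all 6 libraries (0.178 points).

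By distance, the difference was measured in each of the 4 steps. At distance 1 it was 0.200 points (exact permutation p = 0.7), at distance 2 it was 0.0633 points (p = 0.6) and at distance 3 it was 0.378 points (p = 0.2), and the groups overlapped at each. Leaving out control replicate 3 turned distances 1 and 2 to -0.0360 and -0.0399 points, leaving out butyrate replicate 3 turned distance 2 to -0.00226 points, and leaving out butyrate replicate 1 brought distance 3 to 0.169 points. At distance 4 the butyrate libraries were all above the controls, by 0.638 points (75.2% ± 0.0805 against 75.8% ± 0.327, SD, n = 3 each, exact permutation p = 0.1, Benjamini-Hochberg adjusted p = 0.4 over the 4 distances). Within lane 6 the differences were 0.315, -0.0829, 0.0760 and 0.414 points at distances 1 to 4. At distance 4 the groups overlapped under equal window weight (0.371 points), over CpGs read in all libraries (0.301 points), at the 10-read minimum and on the shifted grid. At distance 3 they were apart under equal weight (0.701 points), at a threshold of 20% and on the shifted grid, so that which of these distances separated the groups depended on the setting. Past the shores the groups were also apart at distances 6, 7, 9 and 10, by 0.644, 0.860, 0.520 and 0.428 points. The groups were also apart in each class of CpG density at distance 4, by 0.925, 0.488 and 0.734 points in windows with 1 to 5, 6 to 15 and 16 to 30 CpGs. Distance 4 minus distance 1 differed between the groups by 0.438 points with overlap (exact permutation p = 0.3). Distance 4 minus distance 3 differed by 0.260 points with the groups apart (exact permutation p = 0.1). The islands differed by 0.0208 points (exact permutation p = 0.7).

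Shores were also compared with remote sequence within each library. The remote level was weighted to the shores by class of CpG density, because density itself goes with methylation. It was 73.8% ± 0.108 in control and 74.3% ± 0.157 in butyrate (SD, n = 3 each), a difference of 0.484 points. Shore minus remote was -9.92, -10.1 and -10.0 points in control replicates 1 to 3 and -10.1, -10.2 and -10.2 points in butyrate replicates 1 to 3, and the groups did not overlap. The difference between the groups was -0.155 points (exact permutation p = 0.1), and -0.164 points within lane 6. It was negative under all alternatives run, from -0.512 points over CpGs read in all libraries to -0.0957 points at a level threshold of 20%. The groups overlapped under 5 of them, namely equal window weight, thresholds of 10% and 20%, the shifted grid and held-out levels. By distance, it was -0.284 points at distance 1 (p = 0.2, exact permutation) and -0.420 points at distance 2 (p = 0.1, groups apart). At distances 3 and 4 it was -0.106 and 0.154 points, and the groups overlapped. These values used the remote level weighted to all shores together, so that they are not matched to the CpG density of each distance. Their p-values were not adjusted over the 4 distances.

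By chromosome, the shore level was higher in butyrate on 22 of 29 autosomes and lower on 7. The groups were apart on 4 chromosomes. Butyrate was higher without overlap on chromosomes 7, 18 and 25, by 0.302, 0.762 and 0.714 points, and lower without overlap on chromosome 23, by a difference of -0.771 points. Over all CpGs of each autosome, butyrate was higher on 29 of 29 and higher without overlap on 28 (96.6%), chromosome 23 included (0.565 points). The sign of the shores was therefore opposite to that of the whole chromosome on the 7 autosomes with lower shores. Except on chromosome 23, the groups overlapped in these shores, so that the sign there is not told from the spread between libraries. Groups of 3 libraries without overlap reach only p = 0.1 in an exact permutation test, which was not run by chromosome. Among 29 autosomes, some are thus apart without any effect of treatment, and chromosome 23 may be one of them. The shores of chromosome 23 had 65.6%, 66.1% and 66.1% in control replicates 1 to 3. In butyrate replicates 1 to 3 they had 65.0%, 65.0% and 65.5%.

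Among single windows with 10 or more reads in every library, butyrate was higher without overlap in 181 of 3347 shores (5.41%), beside 5.3% of all 98728 such autosomal windows, and lower without overlap in 140 (4.18%), beside 4.02%. Directly beside islands the shares were 5.29% higher and 5.12% lower of 1153 windows, and at distance 4 they were 6.83% and 3.56% of 703. The shares over all shores were close to those of all windows.

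Differentially methylated regions were sought by logistic regression in 500-bp windows, with CpG cytosines of 10 or more reads, a Benjamini-Hochberg q under 0.05 and a difference over 10 points. Of 8874 windows that could be tested in all libraries, 70 (0.789%) were called. The shores contributed 137 tested windows and 1 call (0.730%), so that nearly all shores were outside the reach of this test. The called window, chr23:48065501-48066000 at distance 1, had 47.6%, 40.9% and 47.9% in control replicates 1 to 3 and 16.1%, 30% and 18.8% in butyrate replicates 1 to 3. It was lower in all butyrate libraries, with a pooled difference of -21.9 points (logistic regression, q = 0.00795). The libraries did not measure the same cytosines in it, since between 3 and 7 cytosines passed the minimum. Over the 3 cytosines that passed in every library the difference was -1.12 points (q = 0.970), and over all CpGs of the window it was -7.25 points (q = 0.548).

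With all CpG cytosines of a window summed, 3348 shores could be tested and 27 (0.806%) were called, 16 higher and 11 lower in butyrate, beside 534 of 103361 windows (0.517%). The groups did not overlap in 17 of the 27, which were picked for a difference, and this was not counted over the 534. With cytosines of 10 or more reads, 0 of the 27 were called, and those named below had no such cytosine. Of the 27, 21 were among 1155 windows at distance 1 (1.82%), and 2 of 797, 4 of 691 and 0 of 705 were at distances 2, 3 and 4. This regression takes no account of the spread between libraries, and tests that do were not run on the summed counts. The 15% limit is on the pooled level, so that a window with 1 group under it was a shore only through the other group. It left out 56.1% of windows at distance 1. The part of either in the share called was not tested. The share of windows with an unadjusted p under 0.05 in this regression was 18.5%, 12.3%, 10.3% and 8.94% at distances 1 to 4 and 10.4% over all tested windows. The window with the smallest q, chr18:58241001-58241500 at distance 3, had 13.3%, 0% and 8.70% in control replicates 1 to 3. In butyrate replicates 1 to 3 it had 82.1%, 43.5% and 5.26%, so that the groups overlapped (logistic regression, q = 1.01e-05). Every control was under 15%, so that this window was a shore only through its butyrate reads. At chr12:79119001-79119500, at distance 1, the controls had 14.3%, 0% and 21.3% and the butyrate libraries 55.3%, 33.3% and 90.9%. Its groups were apart (q = 1.44e-05), with 13 to 61 reads per library. At chr23:51399501-51400000, at distance 1, the controls had 58.8%, 35.7% and 73.9% and the butyrate libraries 14.3%, 11.9% and 25% (q = 0.000170). The window was lower in all butyrate libraries, with 14 to 42 reads per library.

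The spread between libraries of a group was described by the dispersion of the logistic regression. Its mean over windows is 1 where the spread equals binomial counting of independent reads, and its median is then under 1. CpG reads of 1 fragment are not independent, and windows at distance 1 also hold more CpGs and a steeper internal gradient, whose part in the spread was not tested. With all CpG cytosines summed, the median dispersion was 1.67, 1.20, 1.14 and 1.05 at distances 1 to 4, against 1.06 over all windows. The mean dispersion was 2.16, 1.59, 1.39 and 1.34 at these distances, against 1.38 over all windows. With cytosines of 10 or more reads the order was not the same. There the median dispersion was 0.861, 0.825, 1.129 and 1.005 at distances 1 to 4, from 26 to 45 windows each. Over all tested windows it was 1.249. The means were 1.18, 1.24, 1.32 and 1.53 at these distances, against 1.64 over all tested windows. On these cytosines a quasi-binomial F test and limma called 0 of all 8874 windows, the 137 shores included. Unadjusted p was under 0.05 in 8 shores (5.84%) and 5.35% of all windows in the F test, and in 7 shores (5.11%) and 4.82% of all windows in limma.

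**Figure D5:**
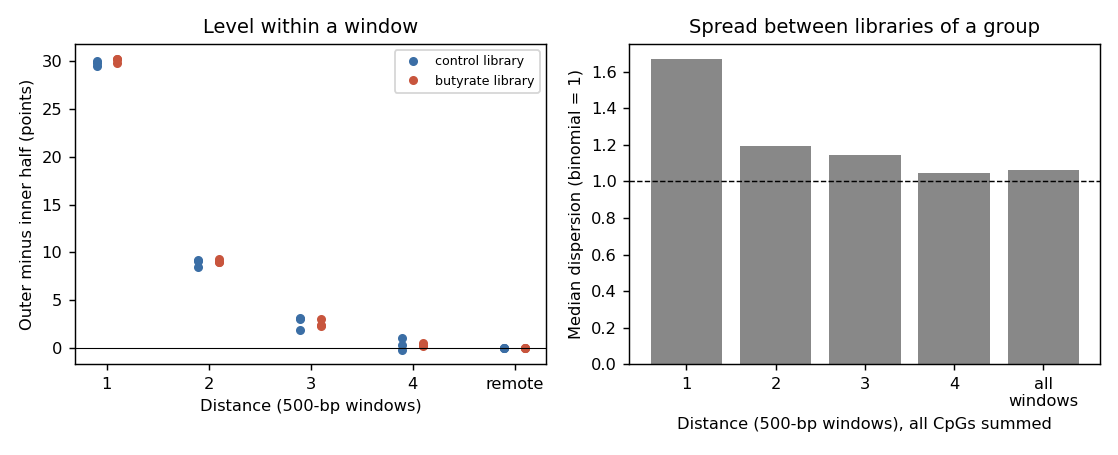
Left, methylation level of the outer 250 bp minus that of the inner 250 bp of a window (y axis, points) in each library at distances 1 to 4 and in remote windows (x axis). Right, median dispersion of 500-bp windows about their group means with all CpG cytosines summed (y axis), at distances 1 to 4 and over all windows. The dashed line at 1 is the mean, not the median, under binomial counting. Both quantities are highest at distance 1 and lowest, among the shores, at distance 4.

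To gather more reads, the shore windows of each island run were summed, and 5949 shores had 20 or more reads in every library. Their level had a median of 66.5%, with 44.5% and 82.3% at the 10th and 90th percentiles. With limma on log2((methylated + 1)/(unmethylated + 1)), 0 of 5949 (0%) passed an adjusted p of 0.05, the smallest being 0.839, and 274 (4.61%) had an unadjusted p under 0.05. Butyrate was higher in 51.2% of these shores. It was higher without overlap in 296 (4.98%) and lower without overlap in 276 (4.64%). Logistic regression on the same shores, which takes no account of the spread between libraries, called 187 of 5949, of which 104 were higher. These calls used an adjusted p under 0.05 alone, without the 10-point limit used for single windows. The median dispersion over the 5949 shores was 1.67. Libraries of one group were no more alike across shores than libraries of different groups, with a mean Pearson's r of 0.673 over 6 pairs and 0.673 over 9 pairs.

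Among shores whose groups did not overlap, those with the smallest limma p that were higher in butyrate were the shores of the island runs at chr21:66591001-66592000, chr5:65425501-65426000 and chr19:56222501-56223500. The first had 47.1%, 53.3% and 79.4% in control replicates 1 to 3 and 96.6%, 96.2% and 91.7% in butyrate replicates 1 to 3. The others had group means of 62.7% ± 12.004 against 91.1% ± 6.42 and of 55.6% ± 5.00 against 85.3% ± 10.5 (SD, n = 3 each). All had an adjusted p of 0.839 or more (limma). Those lower in butyrate were the shores of chr22:59747501-59748000, chr2:72914501-72915000 and chr10:104139001-104139500. The first had 81.1%, 75.8% and 77.8% in control and 25.9%, 0% and 52.4% in butyrate, a difference of -52.1 points (limma adjusted p = 0.984). With lane as a covariate it was the one shore with a limma adjusted p under 0.05 (0.00708), but that contrast rests on butyrate replicate 2 alone, the library at 0%. In the fit without lane, leaving out this library moved the log2 ratio difference from -3.64 to -2.40, with limma adjusted p of 0.984 and 0.974.

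The reads of the groups were not always spread alike along these shores. On chromosome 2, 40.5% of control reads and 72.8% of butyrate reads lay at distance 1, on chromosome 22 the shares were 49.2% and 70.7%, and on chromosome 10 they were 27.6% and 46.8%. On chromosomes 5 and 19 the shares were closer, at 60.1% and 51.2% and at 40.3% and 36.5%. On chromosome 21 no window at distance 1 was a shore under the rule, so that there was no share to compare. Reads were uneven between windows on these chromosomes too. The distance-1 window chr19:56223501-56224000 had 23 control reads (17.4%) and 0 butyrate reads. At distance 2, chr21:66590001-66590500 had 59 control reads (25.4%) and 27 butyrate reads (92.6%). The part of this in the differences was not tested. They were recomputed with equal weights, a comparison added after the values were seen. With each window of 5 or more reads in both groups weighted equally, the difference was 23.4 points on chromosome 21, 12.2 on chromosome 5 and 8.43 on chromosome 19, and it was -25.4 points on chromosome 22, -2.35 on chromosome 2 and -22.4 on chromosome 10. With each CpG read in both groups weighted equally, it was 7.23, -5.30 and 7.88 points on chromosomes 21, 5 and 19 and -9.10, -1.43 and -3.67 points on chromosomes 22, 2 and 10. Each of these values was smaller in size than the difference of the summed reads, and the one on chromosome 5 had changed sign under equal weight per CpG. On chromosome 22 the single window at distance 1, chr22:59748001-59748500, had 75%, 53.6% and 70% in control from 24, 28 and 10 reads, and 6.82%, 0% and 12.5% in butyrate from 44, 18 and 8 reads. Its groups did not overlap, but with 5.71% in the pooled butyrate reads it was a shore only through its control reads. The window had fewer than 10 reads in 1 library and was therefore not tested on its own.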

How the data were processed

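WGBS was done on 3 control and 3 butyrate libraries of REPC. The authors trimmed reads with Trim Galore 0.4.1, mapped them to UMD3.1.1 and extracted methylation with Bismark, whose version is not given in the sources used here. Labels and the methods differ on read length and run type. The deposited values are raw counts of methylated and unmethylated reads per CpG cytosine, without normalization and without a minimum (no cytosine has 0 reads, and coverage of 1 occurs). Neither the conversion rate nor duplicate removal can be recomputed from counts. Incomplete conversion would raise all levels, islands included.

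Rows at adjacent positions were joined as 1 CpG and summed in 500-bp windows (Python 3.11.15, NumPy 2.4.6, pandas 2.3.3). In runs of adjacent rows longer than 2 the strands cannot be assigned with certainty. The number of such runs was 1.84% of the number of CpGs. Each run held more than 1 CpG, and the share of CpGs inside them was not counted. Level is methylated over all reads. The 6 libraries held 18793438 to 23842285 CpG reads in all. Groups of libraries were compared with exact two-sided permutation tests (SciPy 1.17.1), windows with logistic regression and a likelihood-ratio test adjusted over all windows of all sequences, and shores per run with limma 3.58.1 in R 4.3.3 (pseudocount 1, Benjamini-Hochberg over all shores). The members, lists and named regions were chosen with earlier results of these data known. The shores named were the 3 with the smallest limma p in each direction among those without overlap, up to 4 called windows by q, and the 3 best-read runs with 8 shore windows. On simulated counts, the regression on 8874 windows recovered 87% of changes of 20 points, and that on 103361 windows 39.5%. Limma on 5949 shores recovered 0% of changes of 20 points and 98.5% of 40 points. False calls were 5, 2, 0 and 5 in this order. The simulated counts were binomial, with no spread between libraries beyond counting, unlike the real shores (median dispersion 1.67). Recovery with the real spread was not simulated. The replicate number was not used to pair the libraries in the main tests. Alternatives covered weights, coverage minima, thresholds, grid, lane, very deep CpGs and each library left out. Genes and sequences at these positions were not analysed here.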

Additional observations from a re-analysis of the deposited data

How the results depend on the processing

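Most values kept their direction and their state of overlap. Over all shores, leaving out single libraries gave 0.214 to 0.388 points, and the groups overlapped only under equal window weight (0.293), the minimum of 10 reads in every library (0.379) and CpGs read in all libraries (0.178). At distance 1 leaving out single libraries gave -0.0360 to 0.409 points, the negative value without control replicate 3. The value there was 0.0438 on the shifted grid, 0.0964 over shared CpGs, 0.334 at a threshold of 20% and 0.346 at the 10-read minimum. Distance 2 turned negative under equal weight (-0.126), shared CpGs (-0.0369), lane 6 only (-0.0829), and without control replicate 3 (-0.0399) or butyrate replicate 3 (-0.00226), and leaving out single libraries gave -0.0399 to 0.158. Its highest value under any alternative was 0.214, at the 10-read minimum. At distance 3 the groups were apart under equal weight (0.701), a threshold of 20% (0.479), and a grid shifted by 250 bp (0.616). Leaving out single libraries gave 0.169 to 0.529 at this distance, with the groups apart without control replicate 3 or butyrate replicate 2. At the 10-read minimum distance 3 had 0.181, with overlap. At distance 4 they overlapped under equal weight (0.371), the 10-read minimum (0.634), shared CpGs (0.301) and the shifted grid (0.462), with 0.450 to 0.749 on leaving out single libraries. Shore minus remote overlapped under equal weight (-0.301), thresholds of 10% (-0.150) and 20% (-0.0957), the shifted grid (-0.119) and held-out levels (-0.134), with -0.194 to -0.112 on leaving out single libraries, and was -0.262 at the 10-read minimum and -0.512 over shared CpGs. The rise from distance 1 to 4 was 31.7 points with equal weight, 38.1 and 28.7 at thresholds of 10% and 20%, 34.0 on the shifted grid, 34.4 held out, 51.8 at any level and 33.9 without the most covered 0.1% of CpGs, and 33.2 to 33.5 on leaving out single libraries. The cause of these changes was not tested.

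The count of called shore windows was 1, lower in butyrate. It was 0 of 198 at a minimum of 5 reads (beside 0.247% of all windows) and 0 of 134 over shared cytosines (beside 0.0471%). It was 0 of 137 in the quasi-binomial F test and in limma, which called 0 of all windows. At a minimum of 20 reads it was 2 of 86 (2.33%), both higher in butyrate (beside 1.11%). With all CpGs summed it was 27 of 3348 (0.806%, beside 0.517%). Leaving out single libraries gave 0 to 2. It was 0 of 143 without butyrate replicate 1 (beside 0.737%) and 2 of 143 (1.40%) without control replicate 1 (beside 0.819%). With lane as covariate the contrast rests on butyrate replicate 2 alone, and no count is given. The limma count of 0 over shores became 1 with lane as covariate, where the butyrate arm is butyrate replicate 2 alone, and 187 in logistic regression, and stayed 0 whichever library was left out. The shore on chromosome 5 reversed to -5.30 points with equal weight per CpG. The count of 22 autosomes ranged from 19 to 23. Libraries with the same number did not deviate together (r of -0.00547, -0.0237 and -0.00677 over 5949 shores). At a median of 51 reads per shore and library, this cannot tell whether they were handled together. With the replicate as block, distance 3 had the same 0.378 points (exact sign-flip permutation p = 0.25, the smallest that 3 pairs allow, 3 of 3 pairs higher), 1 window and 0 shores were called. Changes under 20 points in single windows were not simulated, and their recovery at this depth is unknown.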
